A study of Homo sapiens with 15 samples.

Results

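The 40 genes described here encode proteins that take human cells through G2 and mitosis. They were taken by name, and the rule used no measured value. Each gene was read from 1 probe set, a group of short array probes against a transcript, that carries its symbol alone. Probe sets ending in _x_at, whose probes can match other genes, were taken last, and the highest mean signal decided among the rest. All 40 genes had such a probe set and all 40 passed the filter on low signals, out of 19775 genes with a chosen probe set, of which 16216 passed. FOXM1, PTTG1 and CENPA could be read only from _x_at probe sets.

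The samples were A549 cells, an established lung adenocarcinoma line of epithelial origin, kept in every group in F12K medium whose serum was charcoal-treated. Total RNA was measured on 15 Affymetrix arrays in 5 groups of 3: cells without treatment, cells given dexamethasone for 6 hours, and cells given dexamethasone for 6 hours together with 48 hours of mifepristone, of the match polyamide or of the mismatch polyamide. Dexamethasone is a synthetic glucocorticoid, and mifepristone is an antagonist of its receptor. Polyamides are synthetic ligands that bind the minor groove of DNA, and the series title describes one directed at the glucocorticoid response element. The mismatch compound is known here only by that label, and the sources used here give no structure, dose or vehicle. No cells had a polyamide without dexamethasone. The labels do not say whether the 3 arrays of a group came from separate cultures, so the p-values measure the spread between these samples, which may be technical, and 3 arrays a group limit the precision. RNA was taken from whole cultures, so fewer cells in G2 or mitosis and less RNA per cell cannot be told apart.

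Most mitotic genes are transcribed late in the cell cycle. MuvB complexes, joined first by B-MYB and then by FOXM1, activate them in S phase and G2, and the DREAM complex of MuvB with p130 and E2F4 silences them in resting cells. The products act in order: cyclin B with CDK1 starts mitosis, kinetochores and motors attach and move chromosomes, the spindle checkpoint holds the cells until attachment is complete, and the anaphase-promoting complex with CDC20 then ends the wait.

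The promoters of 4 members are shown because they carry the 2 elements through which these genes are known to be timed, and because these genes lay at opposite ends of the polyamide comparisons below. CCNB2 and CDC20 rose with the match polyamide, and KIF4A and ASPM fell. Each sequence is the 200 bases before the annotated start, from RefSeq on GRCh38.p14, written 5′ to 3′ on the strand of the gene. Capitals mark TTTGAA, the core of the cell cycle genes homology region (CHR) that MuvB binds, and CCAAT, the box bound by NF-Y, on either strand, so that TTCAAA and ATTGG are also in capitals. CCNB2 is at chr15:59104946-59105145 on the plus strand, CDC20 at chr1:43358781-43358980 on the plus strand, KIF4A at chrX:70289904-70290103 on the plus strand and ASPM at chr1:197146670-197146869 on the minus strand.
CCNB2: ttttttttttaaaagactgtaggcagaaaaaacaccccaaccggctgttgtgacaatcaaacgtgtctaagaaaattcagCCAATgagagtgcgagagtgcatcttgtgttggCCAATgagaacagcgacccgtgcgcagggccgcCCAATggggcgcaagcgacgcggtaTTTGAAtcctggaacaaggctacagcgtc
CDC20: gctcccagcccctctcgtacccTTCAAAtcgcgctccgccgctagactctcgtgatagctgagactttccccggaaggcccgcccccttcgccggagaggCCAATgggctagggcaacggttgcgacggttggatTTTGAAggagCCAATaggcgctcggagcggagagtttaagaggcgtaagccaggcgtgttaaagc
KIF4A: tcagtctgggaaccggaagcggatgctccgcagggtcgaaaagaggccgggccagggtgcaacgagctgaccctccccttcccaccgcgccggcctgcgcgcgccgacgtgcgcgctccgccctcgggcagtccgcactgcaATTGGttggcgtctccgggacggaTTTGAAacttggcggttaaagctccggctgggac
ASPM: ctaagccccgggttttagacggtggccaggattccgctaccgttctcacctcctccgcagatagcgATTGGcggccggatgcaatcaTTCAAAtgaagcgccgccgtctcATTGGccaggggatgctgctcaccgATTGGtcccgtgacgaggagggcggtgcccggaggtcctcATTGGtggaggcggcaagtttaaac
All 4 windows held both motifs, which their choice required. In the longer windows described next, KIF2C, the largest match rise, and CENPE, which fell, held neither TTTGAA nor CCAAT. KIF20A, which rose, held CCAAT but not TTTGAA. A RefSeq promoter window of 300 bases, 250 before the start and 50 after it, was given for 33 of the 40 genes and was not analysed here for FOXM1, AURKA, TPX2, BIRC5, BUB3, TTK and UBE2C. TTTGAA on either strand was in 22 of the 33 windows (66.7%), against 15.4% of the first windows of 27305 genes. CCAAT was in 25 of 33 (75.8%) against 35.7%, and 16 of 33 (48.5%) held it more than once, against 11.3%. A variant CHR core, TTCGAA, was in 2 of 33 windows (6.06%) against 1.45% of all. An E2F motif (TTTGGCGC, TTTCGCGC, TTTCCCGC or TTTGCCGC) was also in 2 of 33 (6.06%) against 3.33%. The hexamer AGAACA, as found in each arm of a glucocorticoid response element, was in 4 of 33 (12.1%) against 14.9%. These are matches of letters, not sites.

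Signals are the deposited values after quantile normalization between arrays, and differences are on the log2(signal + 16) scale with their standard errors (SE). The test was limma, with Benjamini-Hochberg adjustment over the 39744 probe sets that passed the filter, and a gene is called at an adjusted p under 0.05. The shares of all genes given below are at that threshold. Counts at an unadjusted p under 0.05 are for members only and have no such share beside them. The comparisons with dexamethasone share its 3 arrays and are not independent of each other. The markers of the labelled cell type were high: the 6 epithelial markers summed to signals of 17500 to 24200 on the 15 arrays, against 15.6 to 47.4 for 3 leukocyte and 39.3 to 89.2 for 4 endothelial probe sets. The 6 fibroblast probe sets summed to 130 to 187 with dexamethasone and to 278 to 324 with the match polyamide, mainly through COL1A1 (106 ± 9.37 against 230 ± 21.9, mean ± SD, n = 3). Single epithelial markers also differed from dexamethasone alone. With match 2 were called higher and 4 lower (-1.50 to 1.76), beside 21.6% and 17.6% of all genes. With mismatch 2 were called higher and 2 lower (-1.17 to 1.46), beside 18.0% and 11.9%. The part of these markers in the results was not tested.

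**Figure D1:**
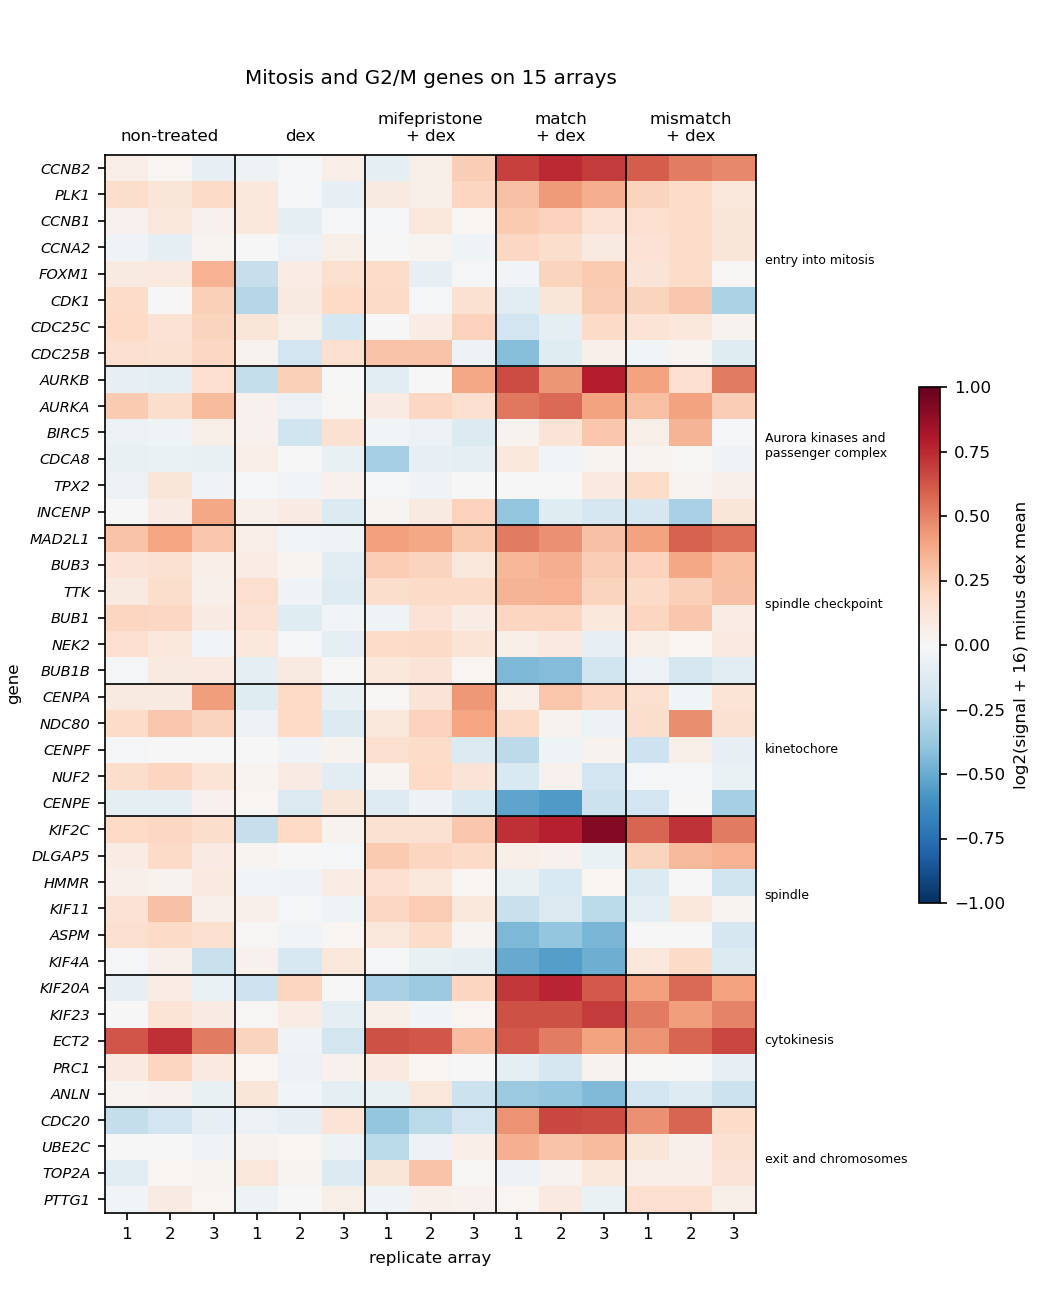
Heat map of the 40 genes (rows, grouped by role and ordered within each by the match polyamide difference) on 15 arrays (columns, 3 in each group). Colour gives log2(signal + 16) minus the mean of the 3 dexamethasone arrays, red for higher and blue for lower, and the strongest reds and blues lie in the match polyamide columns, with KIF2C, CCNB2 and KIF20A at one end and KIF4A and CENPE at the other.

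Dexamethasone alone changed few mitotic genes. In the comparison of 6 hours of dexamethasone with no treatment, 3 of 40 members fell and 0 rose, with limma giving 0 higher and 7 lower at an unadjusted p under 0.05. Of all 16216 genes tested, 3.23% were called higher and 3.61% lower at the adjusted threshold. The median member differed by -0.10, against -0.04 for all genes. Those that fell were ECT2, MAD2L1 and AURKA, and no member was higher by more than 0.17.

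ECT2 is the exchange factor that activates RhoA for the contractile ring of cytokinesis. Its signal was 2166, 2321 and 2009 without treatment and 1628, 1357 and 1224 with dexamethasone. All 3 dexamethasone arrays lay below all 3 untreated ones, and the difference was -0.63 (SE 0.10, limma adjusted p = 0.000228). With mifepristone present it was 2180, 2152 and 1729, which put all 3 arrays above those with dexamethasone alone (0.52, SE 0.10, adjusted p = 0.00219). Both calls were lost when all 3 of its probe sets were averaged, at -0.34 (adjusted p = 0.184) and 0.46 (adjusted p = 0.0685).

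MAD2L1 encodes MAD2, the checkpoint protein that captures CDC20. It measured 1813, 1952 and 1786 without treatment, 1550, 1451 and 1450 with dexamethasone and 1971, 1940 and 1777 with mifepristone added. The dexamethasone arrays were again the lowest without overlap, at -0.32 against untreated cells (SE 0.07, adjusted p = 0.00533) and with a rise of 0.35 under mifepristone (SE 0.07, adjusted p = 0.00279). AURKA, the kinase of centrosomes and spindle poles, measured 1496, 1410 and 1554 without treatment and 1286, 1199 and 1258 with dexamethasone, a difference of -0.25 (SE 0.06, adjusted p = 0.0196). Its call was lost without untreated array 1 (adjusted p = 0.0719), untreated array 3 (0.112) or dexamethasone array 2 (0.108). The calls of MAD2L1 and AURKA against untreated cells were also lost, in the same direction, with signals as deposited, with median centring and with scaling to the spiked-in hybridization controls, where ECT2 alone remained called.

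Mifepristone against dexamethasone raised 2 of the 40 members, ECT2 and MAD2L1, and lowered 0, with 9 higher and 1 lower at an unadjusted p under 0.05 in limma. At the adjusted threshold 2.55% of all genes were higher and 2.78% lower, and the median was 0.09 for members and 0.02 for all genes. This count depends on scaling: with signals as deposited 31 members were higher and 0 lower, and with spike-in scaling 33 and 0, while the median of all probe sets moved to 0.35 and 0.40. Of all 39744 probe sets, 7910 were called higher and 232 lower with signals as deposited, and 12616 and 222 with spike-in scaling. DLGAP5, a microtubule-bundling protein of the spindle, came nearest to a further call, with 809, 792 and 785 under dexamethasone, 954, 927 and 912 with mifepristone, and a difference of 0.22 (SE 0.06, adjusted p = 0.0505).

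On their chosen probe sets, the main regulators of entry into mitosis did not pass in either comparison. CDK1, the kinase itself, had means of 2808 ± 248 without treatment, 2566 ± 434 with dexamethasone and 2749 ± 200 with mifepristone (SD, n = 3), with an interval for dexamethasone against no treatment of -0.41 to 0.14. Another CDK1 probe set, with a mean signal of 1250, was at -0.26 (and called lower, adjusted p = 0.00625) with dexamethasone and higher by 0.22 with mifepristone (adjusted p = 0.0323). For CCNB1, cyclin B1, the interval was -0.18 to 0.05, for PLK1, the polo kinase, -0.33 to 0.00, and for TOP2A, the topoisomerase that untangles sister chromatids, -0.13 to 0.16. FOXM1, the forkhead factor that activates the late genes, had 506, 509 and 607 without treatment and 402, 499 and 533 with dexamethasone, overlapping, with an interval of -0.40 to 0.05.

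**Figure D2:**
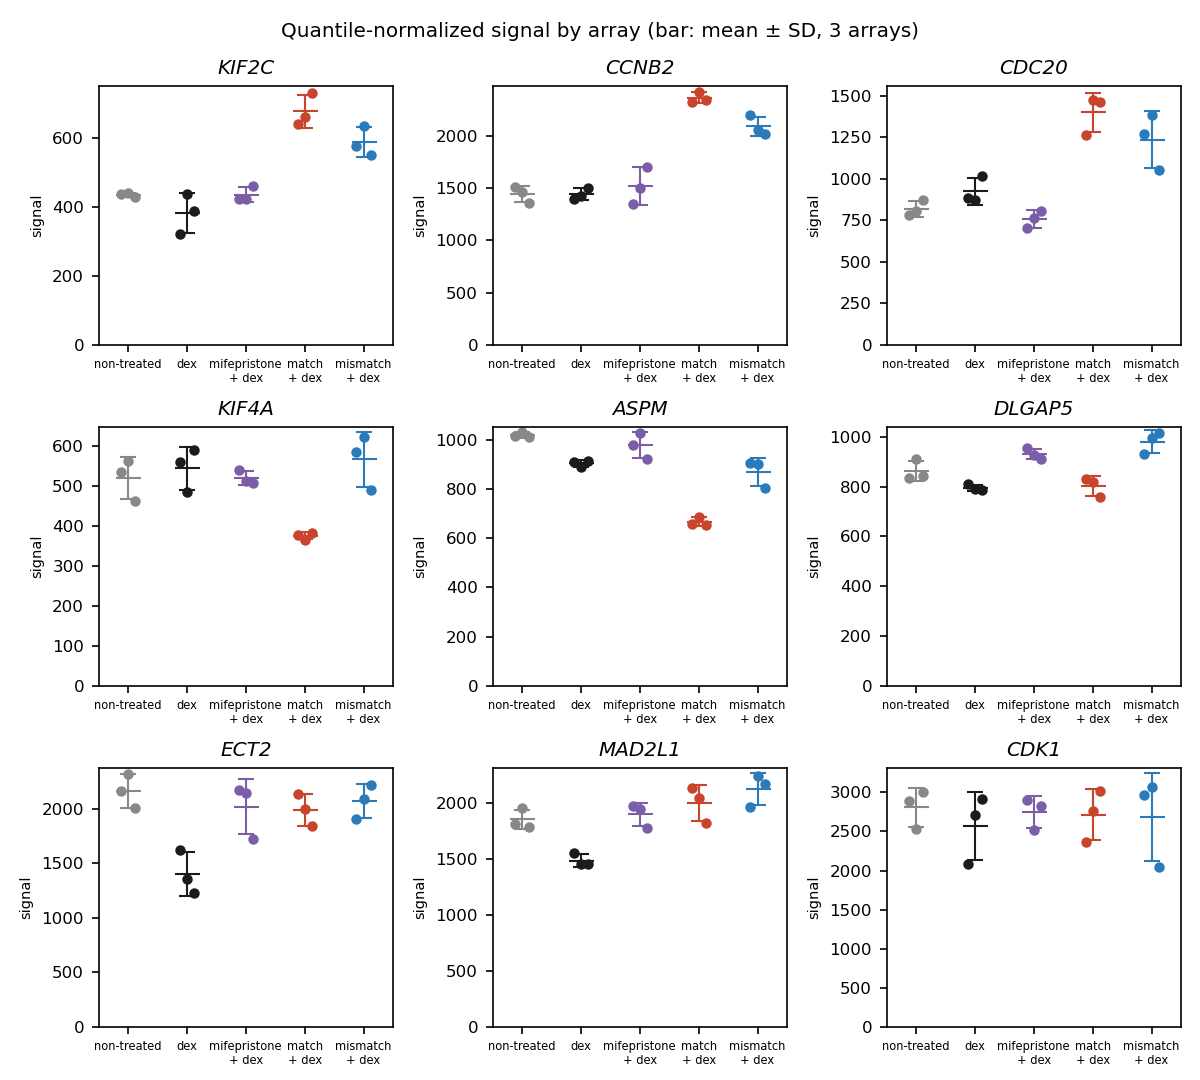
Quantile-normalized signal of 9 genes (vertical axes from 0) on each array of the 5 groups, with points for arrays and bars for the mean ± SD of 3 arrays. KIF2C, CCNB2 and CDC20 are highest with the match polyamide, KIF4A and ASPM are lowest there, DLGAP5 is higher with mismatch than with match, ECT2 and MAD2L1 are lowest with dexamethasone alone, and CDK1 overlaps between groups.

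With the match polyamide, mitotic genes were called both higher and lower, as were genes of all kinds. Against dexamethasone alone, 14 of 40 members rose, 6 fell and 20 did not pass. Of all genes tested, 21.6% were called higher and 17.6% lower, so that the members' 14 and 6 stand beside a background in which such calls were common. The median difference was 0.07 for the members and 0.05 for all genes. Rises went up to 0.81 (KIF2C) and falls down to -0.51 (KIF4A).

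With the mismatch polyamide, 12 members rose against dexamethasone alone, 0 fell and 28 missed the threshold, and limma gave 18 higher and 1 lower at an unadjusted p under 0.05. At the adjusted threshold, to which the 12 and 0 belong, the share of all genes called was 18.0% higher and 11.9% lower. The median was 0.11 for members and 0.07 for all genes. The largest rises were KIF2C at 0.61, ECT2 at 0.57, CCNB2 at 0.53 and MAD2L1 at 0.51.

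Both rises and falls depended on scaling. With the match polyamide the counts of members higher and lower were 9 and 1 with signals as deposited, 9 and 5 with median centring, 14 and 6 with trimmed-mean scaling and 15 and 0 with spike-in scaling, where limma gave 20 higher and 0 lower at an unadjusted p under 0.05. Of all 39744 probe sets, 4271 were higher and 3707 lower with signals as deposited, and 4202 and 5959 with median centring. Trimmed-mean scaling gave 6321 and 5794, and spike-in scaling 8217 and 2668. Spike-in scaling moved the median of all probe sets to 0.24. Under it KIF4A stood at -0.26, CENPE at -0.21, ASPM at -0.17, ANLN at -0.15 and BUB1B at -0.10, still below 0 but not called, and KIF11 turned to 0.05. Signals as deposited lost the rises of CCNB1, PLK1, BUB3, TTK and UBE2C and every fall but that of KIF4A, and median centring lost the same 5 rises and the fall of KIF11. Among the mismatch rises, spike-in scaling lost CCNB1, AURKA, TTK and DLGAP5. Signals as deposited lost CCNB1 and TTK, and median centring lost TTK. Of all probe sets, 4474 were higher and 1763 lower with mismatch under signals as deposited. Median centring gave 4577 and 3234 for mismatch, and spike-in scaling 2645 and 1979. The rises and falls described next are those under quantile normalization, which sets them relative to the bulk of genes on the arrays. Which scaling is right was not tested.

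Among the 8 genes of entry into mitosis, 3 rose with the match polyamide and 2 with the mismatch. CCNB2, cyclin B2, had signals of 1395, 1426 and 1506 with dexamethasone, 2329, 2428 and 2349 with match and 2200, 2058 and 2023 with mismatch. Every polyamide array lay above every array of the other 3 groups. The differences were 0.71 for match (SE 0.07, adjusted p = 9.08e-08) and 0.53 for mismatch (SE 0.07, adjusted p = 9.05e-06). Averaging all 3 CCNB2 probe sets gave 0.18 (adjusted p = 0.153) and 0.07 (adjusted p = 0.619), and 1 of them, with a mean signal of 23.9, was lower with mismatch by -0.49 (adjusted p = 0.0492).

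CCNB1 measured 2386, 2082 and 2207 with dexamethasone, 2669, 2609 and 2453 with match and 2504, 2521 and 2414 with mismatch. Neither polyamide group overlapped dexamethasone, but the differences were small, at 0.21 (SE 0.06, adjusted p = 0.00596) and 0.16 (SE 0.06, adjusted p = 0.0492). The mismatch call was lost without dexamethasone array 2 or 3 or any 1 of the mismatch arrays, and the match call with signals as deposited (0.23, adjusted p = 0.281) and median centring (0.13, adjusted p = 0.378). Signals as deposited also lost the mismatch call (0.39, adjusted p = 0.0517). PLK1 had 326, 297 and 284 with dexamethasone and 374, 410 and 394 with match, without overlap, and rose by 0.36 (SE 0.08, adjusted p = 0.00132). That call was lost with signals as deposited (0.40, adjusted p = 0.0987) and median centring (0.29, adjusted p = 0.0536). With mismatch PLK1 had 354, 345 and 328, and the difference of 0.17 did not pass (interval 0.01 to 0.34, adjusted p = 0.14).

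The other 5 genes of the entry group did not pass with either compound. CDK1 measured 2080, 2708 and 2912 with dexamethasone, 2366, 2763 and 3020 with match and 2962, 3064 and 2042 with mismatch. The arrays overlapped widely, and the match interval was -0.19 to 0.36, while the other CDK1 probe set of mean signal 1250 was higher by 0.24 with match (adjusted p = 0.00196) and by 0.27 with mismatch (adjusted p = 0.00132). FOXM1 had 402, 499 and 533 with dexamethasone, 465, 558 and 572 with match and 520, 541 and 479 with mismatch, again overlapping, with intervals of -0.07 to 0.38 and -0.12 to 0.33. CCNA2, the cyclin of S phase and G2, was at 0.16 with match (adjusted p = 0.0605) and 0.15 with mismatch (adjusted p = 0.0985), and its second probe set passed with match (0.35, adjusted p = 0.0032). The phosphatases that activate CDK1, CDC25B and CDC25C, were at -0.16 (interval -0.39 to 0.06) and -0.03 (-0.27 to 0.21) with match.

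Both Aurora kinases rose with the match polyamide, and the other 4 genes of their group did not pass. AURKA measured 1808, 1857 and 1656 with match and 1541, 1658 and 1481 with mismatch, all above the 1286, 1199 and 1258 of dexamethasone. The rises were 0.50 (SE 0.06, adjusted p = 2.19e-06) and 0.32 (SE 0.06, adjusted p = 0.000705), and a second AURKA probe set gave 0.45 and 0.27. AURKB, the kinase of the chromosomal passenger complex, had 458, 643 and 539 with dexamethasone, 858, 740 and 946 with match and 722, 610 and 783 with mismatch. Its match arrays stood clear of dexamethasone (0.62, SE 0.13, adjusted p = 0.00102), and its mismatch arrays overlapped it (0.36, SE 0.13, adjusted p = 0.0576).

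The partners of AURKB in the passenger complex did not pass. BIRC5, survivin, was at 0.15 with match (interval -0.06 to 0.35), CDCA8, borealin, at 0.04 (-0.14 to 0.21), and INCENP, the scaffold, at -0.23 (-0.58 to 0.13). INCENP signals were only 19.7 to 45.2 over the 15 arrays, close to the added constant of 16, which shrinks its differences. TPX2, the activator of AURKA, was at 0.03 with match (-0.10 to 0.16) and 0.09 with mismatch (-0.04 to 0.22).

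Spindle checkpoint genes split. MAD2L1, BUB3 and TTK rose with both polyamides, BUB1B fell with match, and BUB1 and NEK2 did not pass. MAD2L1 measured 2132, 2040 and 1817 with match and 1964, 2242 and 2168 with mismatch, all above the 1450 to 1550 of dexamethasone and within or above the 1786 to 1952 of untreated cells. The rises were 0.42 (SE 0.07, adjusted p = 4.44e-05) and 0.51 (SE 0.07, adjusted p = 8.94e-06). BUB3, which docks the checkpoint kinases at kinetochores, rose by 0.31 with each compound (adjusted p = 0.000313 and 0.000648). Its match call was lost with signals as deposited (adjusted p = 0.088) and median centring (adjusted p = 0.0643), and its mismatch call when its probe sets were averaged (0.10, adjusted p = 0.258). TTK, the kinase MPS1 at the top of the checkpoint, rose by 0.30 (adjusted p = 0.00571) and 0.24 (adjusted p = 0.0328), and its mismatch call was lost without dexamethasone array 2 or 3 or mismatch array 2 or 3. The TTK match call was lost with signals as deposited (adjusted p = 0.181) and median centring (adjusted p = 0.158). Its mismatch call was lost under the same scalings (adjusted p = 0.0901 and 0.0534).

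BUB1B encodes BUBR1, a subunit of the inhibitor that holds the anaphase-promoting complex. It had signals of 640, 732 and 687 with dexamethasone, 498, 504 and 595 with match and 659, 609 and 634 with mismatch. The match arrays were the lowest of all 15, and the fall was -0.36 (SE 0.08, adjusted p = 0.000972). The mismatch difference of -0.11 did not pass (interval -0.27 to 0.05). BUB1, the kinase related to BUB1B, was at 0.18 with match (0.01 to 0.35, adjusted p = 0.116), and NEK2, the centrosome kinase, at 0.03 (-0.12 to 0.17).

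At the kinetochore, the protein platform of the centromere, CENPE fell with match and the other 4 genes did not pass. CENPE, a large motor that carries chromosomes to the spindle equator, measured 264, 233 and 284 with dexamethasone, 176, 170 and 222 with match and 226, 258 and 203 with mismatch. Its match arrays did not overlap dexamethasone (-0.44, SE 0.11, adjusted p = 0.00421), though array 3 stood well above the other two. CENPA, the centromeric histone, NDC80 and NUF2, which hold microtubules, and CENPF ranged from -0.10 to 0.18 with match. With mismatch all 5 genes missed the threshold, and NDC80 came nearest (0.27, interval 0.04 to 0.49, adjusted p = 0.0921).

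Spindle genes showed the widest spread, from 0.81 to -0.51 with the match polyamide. KIF2C, the kinesin that takes microtubule ends apart at the centromere, had 320, 436 and 389 with dexamethasone, 641, 661 and 731 with match and 576, 636 and 551 with mismatch. All 6 polyamide arrays exceeded all 9 others, with rises of 0.81 (SE 0.09, adjusted p = 8.44e-07) and 0.61 (SE 0.09, adjusted p = 5.74e-05), or 1.75-fold and 1.53-fold. A second KIF2C probe set rose by 0.62 and 0.51.

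KIF4A, a chromosome-bound kinesin that shapes the central spindle, fell with the match polyamide. It measured 559, 484 and 589 with dexamethasone, 376, 366 and 382 with match and 585, 622 and 491 with mismatch. The 3 match arrays were the lowest of all 15 and close together, at -0.51 against dexamethasone (SE 0.09, adjusted p = 0.000208), and the mismatch difference was 0.05 (interval -0.14 to 0.25).

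ASPM, a protein of spindle poles, had 911, 888 and 915 with dexamethasone, 658, 688 and 654 with match and 905, 902 and 804 with mismatch. It fell by 0.43 with match (SE 0.06, adjusted p = 1.64e-05), and its mismatch interval was -0.19 to 0.07. Averaging its 3 probe sets gave -0.01 (adjusted p = 0.961), and another of them, with a mean signal of 46.2, was higher by 0.74 (adjusted p = 0.000931). KIF11, the motor that pushes spindle poles apart, had 928, 884 and 869 with dexamethasone, 761, 806 and 737 with match and 836, 965 and 912 with mismatch. Its fall of -0.21 (SE 0.07, adjusted p = 0.0297) was the weakest of the 6, was lost without dexamethasone array 1 or 2 or match array 1 or 3, and turned to 0.05 with spike-in scaling. DLGAP5 rose with mismatch (0.30, SE 0.06, adjusted p = 0.00122) and stood at 0.01 with match (interval -0.12 to 0.14), and HMMR, a microtubule-binding protein of the spindle also known as a hyaluronan receptor, did not pass with either.

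In cytokinesis, KIF20A, KIF23 and ECT2 rose with both polyamides, and ANLN fell with match. KIF20A, a kinesin of the central spindle, had 390, 530 and 451 with dexamethasone, 751, 778 and 702 with match and 606, 678 and 603 with mismatch. The groups did not overlap, and the rises were 0.69 (SE 0.12, adjusted p = 0.000174) and 0.46 (SE 0.12, adjusted p = 0.0102). The mismatch call was lost without dexamethasone array 1 (adjusted p = 0.0709) or mismatch array 2 (adjusted p = 0.0512).

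KIF23, the motor subunit of centralspindlin, measured 649, 680 and 605 with dexamethasone, 1009, 1010 and 1058 with match and 933, 864 and 912 with mismatch. Its arrays were tight within groups, and the rises were 0.66 (SE 0.06, adjusted p = 9.74e-08) and 0.48 (SE 0.06, adjusted p = 1.45e-05). ECT2 measured 2138, 1997 and 1846 with match and 1907, 2096 and 2223 with mismatch, near the 2009 to 2321 of untreated cells, and rose by 0.51 (adjusted p = 0.000345) and 0.57 (adjusted p = 0.000201). Averaging probe sets lost the mismatch call of ECT2 (0.24, adjusted p = 0.217) and that of KIF23 (0.20, adjusted p = 0.125). ANLN, anillin, the scaffold of the contractile ring, had 1863, 1682 and 1604 with dexamethasone, 1322, 1306 and 1255 with match and 1501, 1568 and 1476 with mismatch.

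All 3 match arrays of ANLN were the lowest of the 15, and the fall was -0.40 (SE 0.07, adjusted p = 2e-04). Its mismatch arrays also lay below dexamethasone without overlap but did not pass (-0.18, adjusted p = 0.0938), while a second ANLN probe set passed in both, at -0.47 and -0.41. PRC1, which bundles the microtubules of the central spindle, was at -0.07 with match (interval -0.20 to 0.05).

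Of the 4 genes of mitotic exit and chromosome separation, 2 rose with match. CDC20, the activator of the anaphase-promoting complex, had 887, 873 and 1020 with dexamethasone, 1267, 1477 and 1462 with match and 1272, 1388 and 1052 with mismatch. Both polyamide groups lay above dexamethasone, by 0.59 (SE 0.09, adjusted p = 3.99e-05) and 0.41 (SE 0.09, adjusted p = 0.00273). UBE2C, the ubiquitin-conjugating enzyme that works with that complex, had 1193, 1177 and 1122 with dexamethasone, 1490, 1424 and 1451 with match and 1267, 1208 and 1297 with mismatch.

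The match rise of UBE2C was 0.32 (SE 0.07, adjusted p = 0.00111) and was lost with signals as deposited (adjusted p = 0.105) and median centring (0.25, adjusted p = 0.0983), and the mismatch difference of 0.11 did not pass (interval -0.03 to 0.25). PTTG1, securin, was at 0.02 with match (-0.10 to 0.13) and 0.13 with mismatch (0.02 to 0.24, adjusted p = 0.0994). TOP2A measured 2901, 2730 and 2439 with dexamethasone, 2583, 2750 and 2891 with match and 2806, 2803 and 2930 with mismatch, which overlapped, and its intervals were -0.12 to 0.17 and -0.06 to 0.23. A dim TOP2A probe set, with a mean signal of 26.6, was higher with both.

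**Figure D3:**
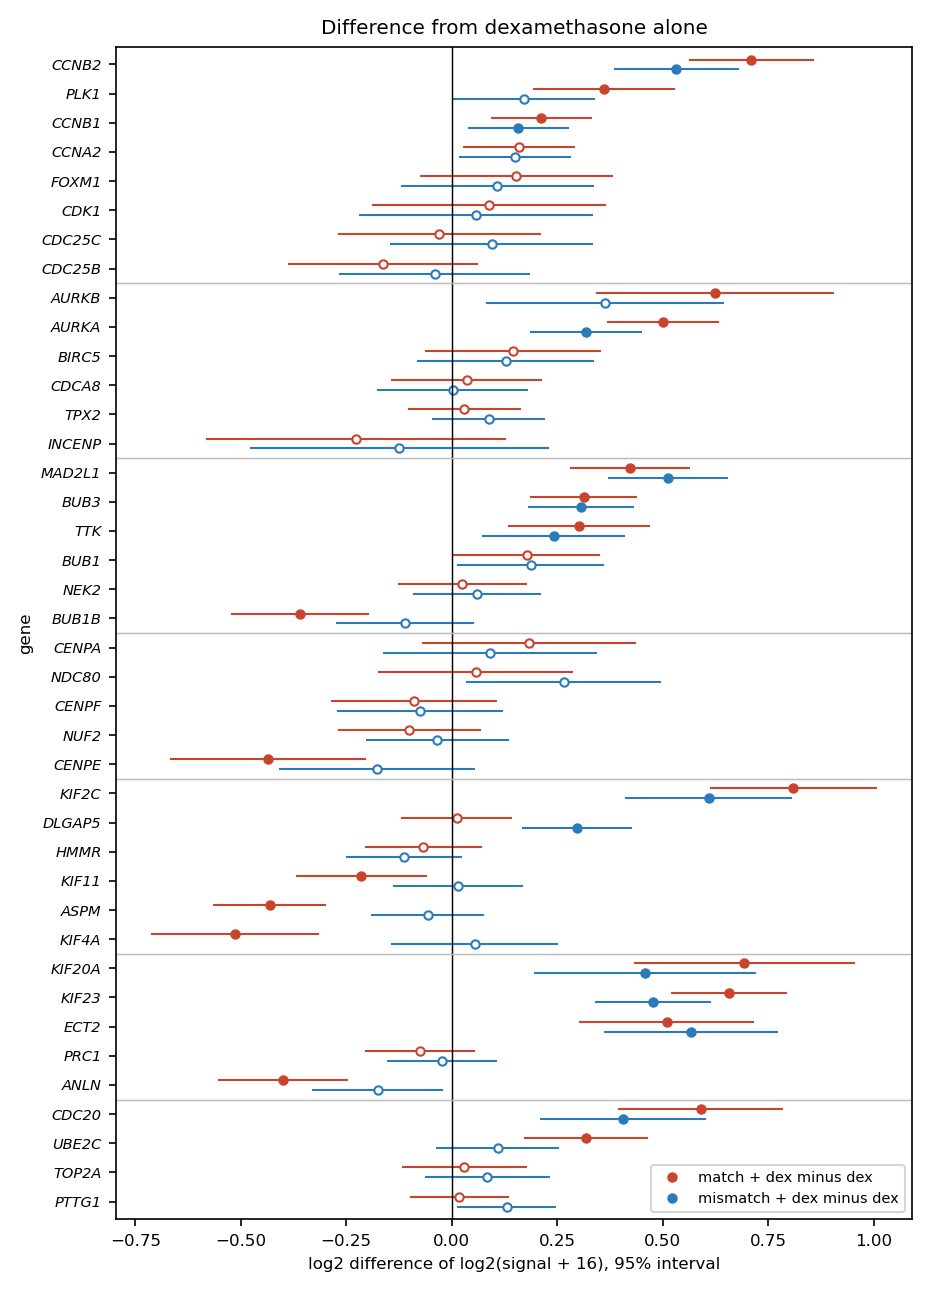
Log2 difference from dexamethasone alone (horizontal axis) for the 40 genes (rows, grouped by role) with the match polyamide in red and the mismatch polyamide in blue, with 95% intervals from the fit. Filled points passed at an adjusted p under 0.05; all 12 filled blue points lie above 0, while the red ones run from KIF2C at 0.81 to KIF4A at -0.51, and under spike-in scaling the red points below 0 were not called and KIF11 moved above 0.

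Members read from several probe sets allow a check within the arrays. The 40 genes have 79 probe sets, all of which passed the filter, where 15.9% of all probe sets tested were called higher and 14.9% lower with match. Of 20 other probe sets of members called with match, 7 were called the same way, 1 the opposite way (ASPM, above) and 12 did not pass. With mismatch 5 of 16 were called the same way and 1 the opposite way (CCNB2, above), beside 4783 higher and 4326 lower of all 39744 probe sets. For dexamethasone against no treatment 0 of 6 were called the same way, for mifepristone against dexamethasone 1 of 4 and for match against mismatch 0 of 5. Against mifepristone it was 5 of 12 with match, where 1 went the opposite way, and 2 of 5 with mismatch.

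The direct comparison of both polyamides, which differ by a change in structure not described in the labels, left most members without a call. Against mismatch, match gave 6 members lower, 2 higher and 32 not passed, with medians of -0.01 for members and -0.02 for all genes. Among all genes 9.45% were higher and 13.6% lower. Of the 6 lower genes, 4 belong to the spindle: KIF4A at -0.57 (SE 0.09, adjusted p = 0.000221), ASPM at -0.37 (SE 0.06, adjusted p = 0.000259), DLGAP5 at -0.29 (SE 0.06, adjusted p = 0.00252) and KIF11 at -0.23 (adjusted p = 0.0349). BUB1B at -0.25 (adjusted p = 0.0292) and ANLN at -0.22 (adjusted p = 0.0388) completed them. The ANLN call was lost without any 1 of the 6 arrays (adjusted p 0.0583 to 0.13) and on averaging its probe sets (-0.14, adjusted p = 0.12). That of BUB1B was lost without match array 1 or 2 or mismatch array 1 or 3, that of KIF11 without match array 1 or 3 or mismatch array 2 or 3, and that of ASPM on averaging its probe sets (-0.08, adjusted p = 0.698).

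For DLGAP5, the match arrays read 832, 819 and 758 and the mismatch arrays 931, 998 and 1016, without overlap. KIF4A and ASPM, given above, did not overlap either. The higher calls were UBE2C (0.21, adjusted p = 0.0423), without overlap, and AURKA (0.18, adjusted p = 0.0491), with overlap. Neither held under another scaling: 0 members were higher with signals as deposited, median centring, trimmed-mean scaling or spike-in scaling, and AURKA turned to -0.0046 with signals as deposited and to -0.0038 with median centring. The lower calls numbered 2, 7, 6 and 0 under those 4 scalings, with limma giving 4 higher and 1 lower at an unadjusted p under 0.05 under spike-in scaling. Of all 39744 probe sets, 556, 1180, 3035 and 2135 were higher and 2538, 4714, 3560 and 712 lower under those 4 scalings. Without match array 1 or mismatch array 3 there were 3 members lower and 0 higher.

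Genes that rose with both compounds mostly did not pass in the comparison of match with mismatch. CCNB2 differed between match and mismatch by 0.18 (interval 0.03 to 0.32, adjusted p = 0.0927), KIF23 by 0.18 (0.05 to 0.32, adjusted p = 0.0635), KIF2C by 0.20 (0.01 to 0.40, adjusted p = 0.165) and KIF20A by 0.24 (-0.02 to 0.50, adjusted p = 0.23). In each of these genes every match array nonetheless lay above every mismatch array. For BUB3 the interval was -0.12 to 0.13, for ECT2 -0.26 to 0.15 and for MAD2L1 -0.23 to 0.05. Of the other BUB3 probe sets, 2 were higher with match than with mismatch, by 0.29 (adjusted p = 0.0106) and 0.24 (adjusted p = 0.00467).

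Set against mifepristone with dexamethasone, which had the same 48 hours of compound, the match polyamide gave 11 members higher, 9 lower and 20 not passed. All genes gave 21.1% higher and 18.1% lower, with a median of 0.05 against -0.0029 for the members. CDC20 (703, 765 and 808 with mifepristone) differed by 0.87 (adjusted p = 2.96e-07), KIF20A (358, 348 and 528) by 0.85 (adjusted p = 1.75e-05), CCNB2 by 0.64 (adjusted p = 4.09e-07) and KIF23 by 0.64 (adjusted p = 1.58e-07). The calls of CCNB2 and KIF23 were lost with signals as deposited (0.26, adjusted p = 0.163, and 0.23, adjusted p = 0.332) and with spike-in scaling (0.41, adjusted p = 0.0521, and 0.37, adjusted p = 0.112). Lowest were ASPM at -0.54 (adjusted p = 9.92e-07), KIF4A at -0.45 (adjusted p = 0.000723), BUB1B at -0.44 (adjusted p = 0.00012) and KIF11 at -0.40 (adjusted p = 0.000199), and averaging its probe sets took ASPM to -0.18 (adjusted p = 0.22).

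ECT2 and MAD2L1, which rose with every compound against dexamethasone, differed here by -0.01 (interval -0.22 to 0.19) and 0.07 (-0.07 to 0.21). The split of calls moved with scaling, to 2 higher and 17 lower with signals as deposited, 5 and 15 with median centring and 2 and 9 with spike-in scaling, and CCNA2, CCNB1 and PLK1 changed sign under all 3. The counts over all 39744 probe sets moved too, to 1264 higher and 9512 lower, 3120 and 8140, and 1895 and 7054 under those scalings. Mismatch against mifepristone gave 6 higher and 1 lower, beside 17.2% and 12.5% of all genes and medians of 0.06 for each, with CDC20 at 0.69 (adjusted p = 1.29e-05) and KIF20A at 0.62 (adjusted p = 0.00094). KIF20A lost its call with signals as deposited (0.37, adjusted p = 0.136) and both lost it with spike-in scaling (CDC20 0.29, adjusted p = 0.182; KIF20A 0.20, adjusted p = 0.465). The lower gene was HMMR at -0.21 (adjusted p = 0.0219), whose call was lost without mifepristone array 1 or 2 or mismatch array 1 or 3, and the counts of higher and lower members were 1 and 1 with signals as deposited, 4 and 0 with median centring, 12 and 0 with trimmed-mean scaling and 0 and 11 with spike-in scaling. Over all probe sets those scalings gave 922 higher and 5887 lower, 2806 and 4882, 4510 and 4588, and 580 and 9207.

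A property the choice of members did not use, the length of the gene, was correlated with the match differences and more weakly with the mismatch ones. Spans were taken from RefSeq annotation on GRCh38.p14 as lengths only, after the values were seen. With match, the 14 members that rose had a median span of 13.8 kb (4.22 to 78.5), the 6 that fell 63.2 kb (60.1 to 131) and the 20 others 28.8 kb (6.89 to 62.5). Among the 9 members of 60 kb or more, 6 fell, 1 rose (ECT2, 78.5 kb) and 2 did not pass (TPX2 and CENPF). Among the 31 shorter ones, 13 rose and 0 fell in limma at the adjusted threshold, and 0 were lower at an unadjusted p under 0.05. The boundary of 60 kb was set with the values known, just under the shortest span of a called fall (60.1 kb). It therefore fixed the 0 called falls among shorter members in advance. No share of all genes called in the same spans is given here. Over all genes the median match difference was 0.036 for 40 to 80 kb and -0.173 for 80 to 160 kb. For the 11 and 2 members in those classes it was -0.029 and -0.475.

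Spearman's rho across the 40 members between span and the match difference was -0.57, and -0.50 without the 2 longest genes, KIF4A (131 kb) and CENPE (92.5 kb). Across 16194 genes of all kinds it was -0.31. With mismatch the values were -0.39 for the members and -0.29 for all genes, and between match and mismatch -0.67 and -0.16. Without the 2 longest genes the members gave -0.32 for mismatch against dexamethasone and -0.61 for match against mismatch. For mifepristone against dexamethasone the members gave 0.15 (0.28 without the 2 longest) and all genes 0.04. For dexamethasone against no treatment the members gave -0.16 (-0.33 without the 2 longest, like the mismatch value) and all genes -0.02. These correlations describe genes read on the same arrays, which are not independent replicates.

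Lower values at longer spans were also seen over all genes. The median match difference of all genes went from 0.14 for spans under 10 kb to -0.50 over 160 kb. With mismatch it went from 0.14 to -0.33. RNA quality probes differed little by group for GAPDH, whose log2 ratio of 3′ to 5′ probe sets was -0.13 to 0.10 on the 15 arrays. For ACTB it was 0.40 to 0.49 with dexamethasone, 0.40 to 0.78 with match and 0.50 to 0.99 with mismatch, and its part in the result was not tested. By motif, TTTGAA was in 6 of 10 members that rose with match, 5 of 6 that fell and 11 of 17 that did not pass, and CCAAT in 9 of 10, 3 of 6 and 13 of 17.

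**Figure D4:**
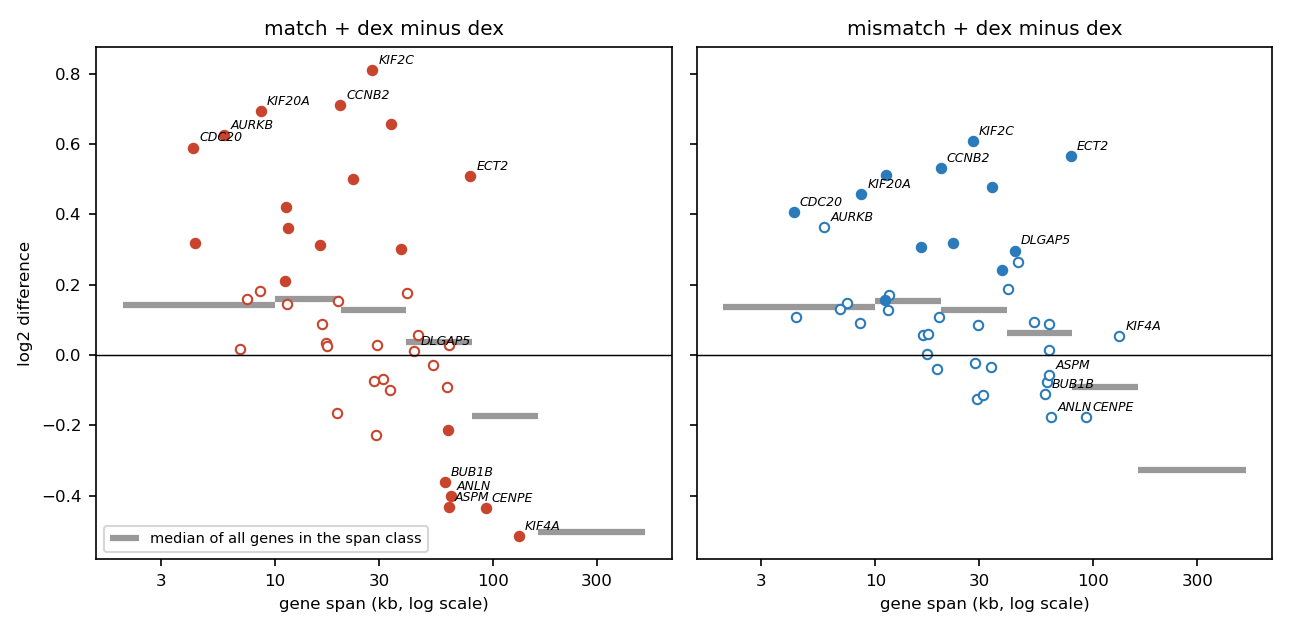
Log2 difference from dexamethasone alone (vertical axis) against gene span in kb (horizontal, log scale) for the 40 genes with the match polyamide (left) and the mismatch polyamide (right), filled where the adjusted p was under 0.05; grey bars give the median of all genes in each span class. With match, the filled points below 0 are genes of 60.1 to 131 kb (not called under spike-in scaling, where KIF11 moved above 0), and the grey bars also descend.

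Other mitotic genes, taken from lists that do not overlap the 40, were called both ways with the match polyamide as well. Their counts stand beside the 21.6% of all genes called higher and 17.6% lower with match, the 18.0% and 11.9% with mismatch, and medians over all genes of 0.05 and 0.07. Several lists lay near those shares. Of 21 other kinesin and spindle genes, 6 rose and 3 fell, with PIMREG, a regulator of the metaphase to anaphase step, at -0.74 (adjusted p = 9.52e-07) and the kinesins KIF18B at 0.49 (adjusted p = 0.000242) and KIF22 at 0.44 (adjusted p = 0.00043). CEP55, which directs the final cut of cytokinesis, rose by 0.27. Of 29 other kinetochore and centromere genes, 4 rose and 9 fell, the strongest being SKA2, of the SKA microtubule-binding complex, at -1.37 (adjusted p = 8.9e-12). The centromere proteins CENPI (-1.09) and CENPW (-0.66) fell, and so did NSL1 of the MIS12 complex (-0.44). With mismatch SKA2 fell by 1.20 (adjusted p = 2.18e-10), and CENPW stood at 0.08 (adjusted p = 0.479), and CENPW differed between both compounds by -0.74 (adjusted p = 4.08e-07).

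Condensin and cohesin, the rings that compact and hold chromosomes, gave 5 higher and 9 lower of 20 with match. The cohesin subunits STAG1 (-1.35) and STAG2 (-0.49) and the condensin subunit NCAPG2 (-0.76) fell, while CDCA5, sororin, rose by 0.55. Among 16 genes of the anaphase-promoting complex and its enzymes, 4 rose and 2 fell. UBE2S rose by 0.59, ANAPC7 by 0.54 and ANAPC2 by 0.53, and ANAPC10 fell by 0.52 with match but was at 0.28 with mismatch (adjusted p = 0.114).

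Among 22 regulators of the DREAM, E2F and MYB groups, 7 rose and 5 fell with match. The repressors E2F7 and E2F6 rose by 1.05 and 0.71, and RB1 (-1.04) and TFDP2, a partner of E2F factors (-1.02), fell. E2F7 rose by the same 1.05 with mismatch (adjusted p = 3.66e-08), and E2F6 was at 0.12 there (adjusted p = 0.341). Among 14 tested genes known to slow entry into mitosis, 10 rose and 1 fell with match, with a median of 0.45 beside 0.05 for all genes (21.6% higher and 17.6% lower). With mismatch 7 rose and 7 did not pass, beside 18.0% of all genes higher.

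Of that last list, PLK2, a stress-induced polo kinase, fell by 1.64 with dexamethasone and rose by 1.49 with match and 0.43 with mismatch. SFN, the protein 14-3-3 sigma that holds cyclin B with CDK1 in the cytoplasm, rose by 0.35, 0.72 and 0.41 in the same comparisons. CCNG1, cyclin G1, rose by 0.56 with match and 0.61 with mismatch. CDKN1C, the inhibitor p57 and a gene induced by glucocorticoids, rose by 3.62 with dexamethasone, fell by 1.71 with match and stood at -0.05 with mismatch (adjusted p = 0.846). Of 37 replication genes, 16 rose and 5 fell with match, with a median of 0.20; CDC6 and RFC4 rose by 0.48 and 0.35, and POLA1 (-1.48) and GINS1 (-0.74) fell.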

How the data were processed

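Total RNA of A549 cells was measured on 15 Affymetrix arrays, 3 in each of 5 groups. The values used are linear signal intensities that the authors deposited for 54675 probe sets, made with MAS5 per the submitters' processing notes; its version and scaling target, and the doses, are unstated in the sources used here. Probe sets were named through GEO's platform annotation: 41097 carry 1 symbol, 1801 several and 11777 none. 

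Intensities were quantile-normalized, and log2(signal + 16) was fitted with limma 3.58.1 in R 4.3.3 (1 coefficient per group over all 15 arrays, eBayes with a variance trend). The fit kept the 39744 probe sets (72.7%) above the 40th percentile of their array on at least 3 arrays, without 62 control probe sets. All columns of per-sample values were used. The script was tested on simulated data. Array values were given for the 6 largest called rises and falls with the match polyamide, for the strongest calls of the other comparisons, and for CCNB1, CDK1, PLK1, TOP2A and FOXM1. For the further lists, up to 4 genes of smallest adjusted p were named, and DLGAP5, HMMR, BUB3 and other members were described from their fits. The members, lists and span analysis were chosen with earlier results of these data known. Alternatives changed the scaling, pseudocount, filter, variance model, arrays in the fit, replicate block, probe set rule and, in turn, each array.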

Additional observations from a re-analysis of the deposited data

How the results depend on the processing

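Of the counts of members called under other settings, 200 stayed within 1.5 times the value reported, 42 were smaller and 10 larger. Of the differences of single members, 4676 kept their call or their lack of a call, 210 lost a call and 133 gained one. A further 21 changed sign while called under the main setting, the other setting or both. Changes of sign without a call in either setting were not counted and stand among the 4676. The cause was not tested. Of the medians over members, 102 moved by less than the spread between replicates and 24 by more. Scaling mattered most, and the counts over all probe sets moved with it too. Given as higher or lower, the counts of members that moved were, with signals as deposited: 1 lower for dexamethasone against no treatment, 31 higher for mifepristone and 9 higher and 1 lower for match against dexamethasone, 0 and 2 for match against mismatch, 2 and 17 for match and 1 higher for mismatch against mifepristone. With median centring they were 1 lower for dexamethasone, 9 higher for match against dexamethasone, 0 higher against mismatch, 5 and 15 against mifepristone, and 0 lower for mismatch against mifepristone. With spike-in scaling they were 1 lower for dexamethasone, 33 higher for mifepristone, 0 lower for match against dexamethasone, 0 and 0 against mismatch and 2 higher against mifepristone, and 0 and 11 for mismatch against mifepristone. Trimmed-mean scaling gave 0 higher for match against mismatch and 12 and 0 for mismatch against mifepristone. Without a variance trend there were 1 lower for dexamethasone, 1 higher for mifepristone, 0 and 3 for match against mismatch, 5 lower for match and 0 lower for mismatch against mifepristone. Match against mismatch gave 0 higher without a filter and 1 with only the arrays compared or the mean of all probe sets of a gene. That mean gave 2 lower for mismatch against dexamethasone (ANLN at -0.29 and HMMR at -0.17) and 2 lower for mismatch against mifepristone, as did the stricter filter. Leaving out each array in turn gave 0 to 1 higher and 3 to 5 lower for match against mismatch and 0 to 3 lower for mismatch against mifepristone. The replicate numbers do not pair the arrays: deviations of same-numbered arrays correlated at -0.0836 to 0.116 over 30 pairs. With the replicate number as a block, 14 and 6 members were called for match against dexamethasone, and 0 higher in place of 2 for match against mismatch. The 21 changes of sign counted above follow. With signals as deposited they were CCNA2 (0.44) and TPX2 (0.41) for mifepristone against dexamethasone, AURKA (-0.0046) for match against mismatch, CCNA2 (-0.23), CCNB1 (-0.16), PLK1 (-0.17) and AURKA (-0.023) for match against mifepristone and UBE2C (-0.023) for mismatch against mifepristone. With median centring they were AURKA (-0.0038) for match against mismatch and CCNA2 (-0.077), CCNB1 (-0.0044) and PLK1 (-0.012) for match against mifepristone. With spike-in scaling they were CCNA2 (0.51), TPX2 (0.48), KIF4A (0.46) and ANLN (0.42) for mifepristone, KIF11 (0.047) for match against dexamethasone, CCNA2 (-0.088), CCNB1 (-0.014) and PLK1 (-0.026) for match and UBE2C (-0.19) for mismatch against mifepristone. Signal limits INCENP most, whose signals lay near the added constant.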
